A study of Mus musculus with 6 samples.

Results

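The genes of branched-chain amino acid (BCAA) catabolism were examined in soleus (Sol), the slow fiber-dominant muscle of the calf, from mice trained by voluntary wheel running (VWR). The 10 genes were chosen by symbol for their role in the pathway, and 10 of 10 were found among the 24411 genes listed and among the 12828 genes tested. The RNA came from 3 WT and 3 LSD1-mKO mice on the C57BL/6 background, with 1 library per mouse and no untrained mice in the series. Per the study's methods, both groups carried floxed Lsd1 alleles, and the LSD1-mKO mice also carried CreERT2 driven by the human ACTA1 promoter. Once tamoxifen is given, CreERT2 removes LSD1 from differentiating and differentiated muscle cells. The mice were 8 weeks old at the start and could use a wheel over 38 days. The first 3 days served for familiarization, then both genotypes received tamoxifen at 75 mg/kg for 5 days, and running was recorded over the next 30 days. Before the tissue was taken, the animals were kept off the wheel and fasted.

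Leucine, isoleucine and valine are the BCAAs, and skeletal muscle is a main site of their first breakdown step. The mitochondrial transaminase BCAT2 removes the amino group, and the branched-chain keto acid dehydrogenase (BCKDH) complex then commits the carbon skeleton to oxidation. The complex is switched off when the kinase BCKDK phosphorylates its E1 component and switched on when the phosphatase PPM1K removes the phosphate. After this step the 3 skeletons take separate routes that end in acetyl-CoA, acetoacetate and succinyl-CoA, which feed the TCA cycle. Exercise and fasting are both known to raise BCAA oxidation in muscle.

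The totals were between 8940206 and 10989846 estimated counts in WT and between 10984664 and 13798059 in LSD1-mKO. Levels are given as counts per 1000000 (CPM) after TMM scaling, with TMM factors between 0.929 (WT replicate 1) and 1.07 (WT replicate 2). Kdm1a, which encodes LSD1, measured 40.5, 38.2 and 33.6 CPM in WT and 14.6, 16.6 and 16.6 CPM in LSD1-mKO, and every LSD1-mKO mouse was below every WT mouse. The log2 fold change of Kdm1a was -1.23 (standard error (SE) 0.11, adjusted p = 0.0160, edgeR), and its adjusted p was 0.116 without WT replicate 2, 0.111, 0.143 and 0.209 without LSD1-mKO replicates 1, 2 and 3, and 0.299 with the replicate number as a block. Muscle fiber markers were abundant in every library, with Acta1, Ckm, Mb and Myh7 among them, and the 10 markers summed to between 91488 and 121461 CPM. The 6 fibroblast markers summed to 1329, 3437 and 4395 CPM in WT and to 2801, 1361 and 1488 CPM in LSD1-mKO, with WT replicate 1 at the low end. In whole muscle, fewer cells of a type and less RNA per cell cannot be told apart.

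Between the genotypes, no gene of the pathway core differed beyond the spread between mice. Of the 10 genes, 0 passed an adjusted p of 0.05 in edgeR's quasi-likelihood test, where 0.0156% of all genes tested passed, and 0 had an unadjusted p under 0.05, against 6.40% of all genes tested. With DESeq2 or limma voom the number of them called was also 0. The CPM ranges of WT and LSD1-mKO overlapped for every one of the 10 genes, while they did not overlap for 12.7% of all genes tested. All 10 fitted log2 fold changes of LSD1-mKO over WT were above 0, which was the case for 45.2% of all genes tested, and their median was 0.12 against -0.020 for all genes tested. The 95% intervals of the 10 genes reached from -0.34 to 0.59, and on the linear scale no interval extended above 1.5-fold or below 0.789-fold of the WT level.

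Coordinates are those of GRCm38. Bcat2, the transaminase that opens the pathway (chromosome 7, 45570153 to 45589711), measured 91.3, 80.6 and 84.0 CPM in WT replicates 1 to 3. In LSD1-mKO replicates 1 to 3 it measured 78.1, 103 and 118 CPM. Replicates 2 and 3 of LSD1-mKO were above all WT mice, and LSD1-mKO replicate 1 was the lowest of the 6. The log2 fold change was 0.23 (SE 0.15, adjusted p = 0.782 by edgeR, adjusted over all genes tested). The spread was also wider in LSD1-mKO, at an SD of 20.2 CPM (n = 3) against 5.45 CPM in WT (n = 3).

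The BCKDH complex is built from E1 alpha (Bckdha), E1 beta (Bckdhb), the E2 transacylase core (Dbt) and the E3 subunit Dld, which it shares with the pyruvate and 2-oxoglutarate dehydrogenases. Bckdha (chromosome 7, 25629946 to 25658981) measured 180, 160 and 135 CPM in WT and 130, 187 and 160 CPM in LSD1-mKO. Its groups covered nearly the same range, and the log2 fold change was 0.0062 with a 95% interval from -0.34 to 0.35. The sign of this difference was negative with the library size alone (-0.011) and with limma voom (-0.002). The exons of Bckdha share 1171 bases with B3gnt8 on the other strand, and B3gnt8 had between 17 and 36.0 counts per library, against 1493 to 2579 for Bckdha. No strand setting is given for the counting, so reads from the 2 strands cannot be told apart there. Antisense RNAs overlap exons of Bcat2 (0610005C13Rik, 622 bases, at most 6.00 counts per library) and Mccc1 (Mccc1os, 198 bases, at most 7.15 counts), with the same limit.

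Bckdhb (chromosome 9, 83925145 to 84124240) measured 47.5, 41.1 and 38.3 CPM in WT and 41.0, 50.6 and 42.8 CPM in LSD1-mKO. The log2 fold change of 0.086 was smaller than its standard error of 0.12. Dbt (chromosome 3, 116513070 to 116549981) measured 69.0, 55.2 and 44.6 CPM in WT and 60.4, 70.6 and 67.8 CPM in LSD1-mKO. Here WT replicates 2 and 3 lay below all LSD1-mKO mice, and WT replicate 1 lay between LSD1-mKO replicates 3 and 2. The log2 fold change of Dbt was 0.24 (SE 0.15, adjusted p = 0.781, edgeR), and without WT replicate 1 it was 0.41 (adjusted p = 0.233, in a range from 0.233 to 1.00 over all alternatives). Dld, at 472 ± 52.1 CPM (SD, n = 3) among WT mice and 495 ± 27.7 (SD, n = 3) in LSD1-mKO, had a log2 fold change of 0.070 (adjusted p = 0.920, edgeR).

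**Figure D1:**
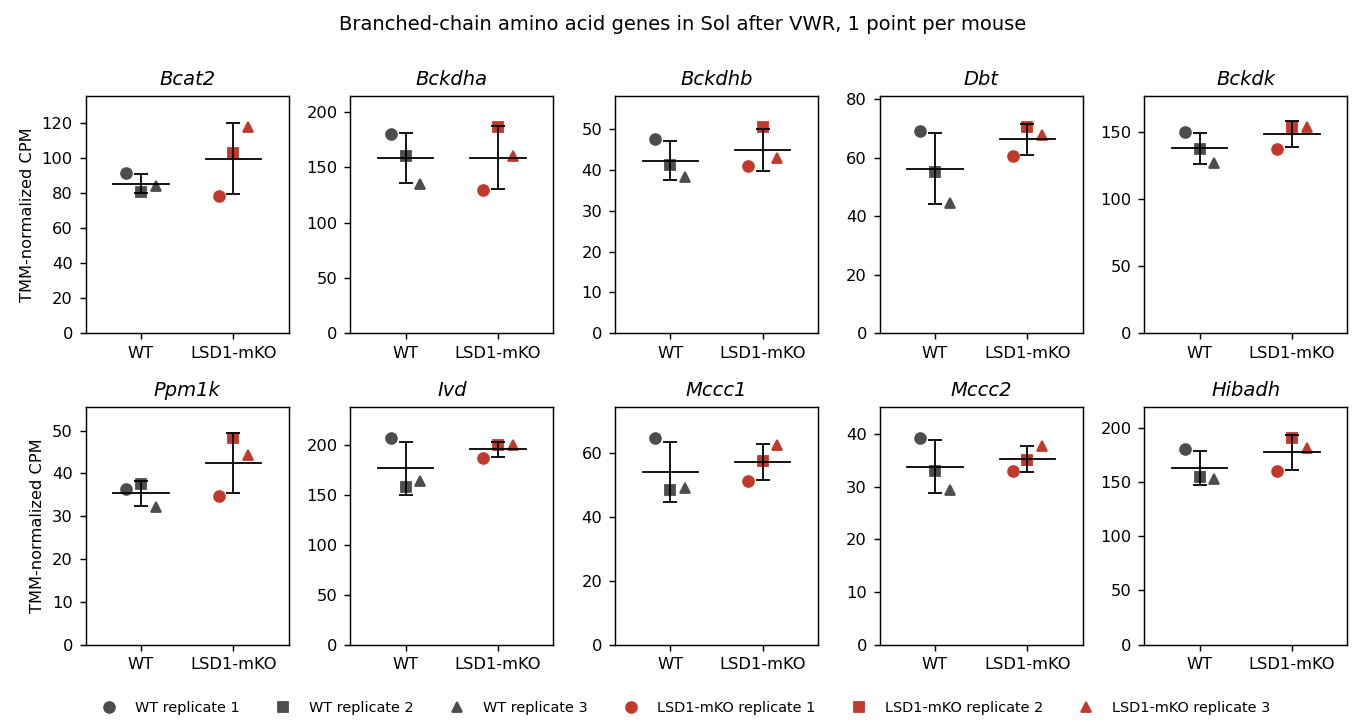
TMM-normalized CPM (vertical axes, from 0) of the 10 BCAA genes in 3 WT and 3 LSD1-mKO mice, with 1 point per mouse, the mean as a line and the SD as a bar. The groups overlap in every panel, and LSD1-mKO replicate 1 is the lowest LSD1-mKO mouse in all 10.

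The pair of enzymes that set the phosphorylation of the complex was next compared. Bckdk, the kinase (chromosome 7, 127904082 to 127910221), measured 150, 137 and 127 CPM in WT and 137, 154 and 154 CPM in LSD1-mKO. LSD1-mKO replicates 2 and 3 were above all WT mice by a small margin, with a log2 fold change of 0.11 and a 95% interval from -0.11 to 0.32. Ppm1k, the phosphatase (chromosome 6, 57506502 to 57535468), measured 36.3, 37.5 and 32.1 CPM in WT and 34.7, 48.3 and 44.2 CPM in LSD1-mKO. LSD1-mKO replicates 2 and 3 exceeded all WT mice, and LSD1-mKO replicate 1 lay within the WT range. Its log2 fold change of 0.26 was the largest of the 10 genes (SE 0.13, unadjusted p = 0.0823, adjusted p = 0.766, edgeR).

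On the scale of transcripts per 1000000 (TPM), the ratio of Bckdk to Ppm1k was 6.76, 5.96 and 6.47 in WT and 6.45, 5.22 and 5.69 in LSD1-mKO. The mean was 6.40 ± 0.409 (SD, n = 3) in the WT mice and 5.79 ± 0.621 in LSD1-mKO (SD, n = 3), with ranges that overlapped (exact permutation test, 2-sided, p = 0.200, adjusted p = 0.667 over 4 values tested in this way). With 3 mice against 3 this test cannot give a p under 0.1. The balance of kinase to phosphatase transcripts was thus not shown to differ, and RNA levels give no measure of the phosphorylation itself.

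The leucine branch is represented by Ivd, Mccc1 and Mccc2. Ivd, isovaleryl-CoA dehydrogenase (chromosome 2, 118861954 to 118882909), passes its electrons to the electron transfer flavoprotein. It measured 207, 158 and 164 CPM in WT and 187, 200 and 200 CPM in LSD1-mKO. WT replicate 1 was the highest of the 6 mice in CPM, and the other WT mice were below all LSD1-mKO mice. On the scale of TPM, WT replicate 1 (115) was below LSD1-mKO replicates 2 and 3 (both 121). The log2 fold change was 0.15 with all mice (adjusted p = 0.824, edgeR) and 0.28 without WT replicate 1 (adjusted p = 0.216, in a range from 0.216 to 1.00 over all alternatives).

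Mccc1 and Mccc2 encode the subunits of 3-methylcrotonyl-CoA carboxylase, a biotin enzyme. Mccc1 (chromosome 3, 35959312 to 36000678) measured 64.6, 48.4 and 48.8 CPM in WT and 51.0, 57.5 and 62.2 CPM in LSD1-mKO. Mccc2 (chromosome 13, 99948530 to 100015639) measured 39.3, 32.9 and 29.3 CPM in WT and 33.0, 35.0 and 37.8 CPM in LSD1-mKO. For both subunits WT replicate 1 was the highest mouse in CPM, and LSD1-mKO replicate 3 was the highest in TPM. The log2 fold changes of 0.079 and 0.063 were below their standard errors of 0.13 and 0.12. The TPM ratio of Mccc1 to Mccc2 was 1.38 ± 0.0902 (SD, n = 3) in the WT mice and 1.39 ± 0.0478 in LSD1-mKO (SD, n = 3), and its range over the 6 mice was 1.27 to 1.44 (exact permutation test, p = 0.900). For the subunits of E1, the ratio of Bckdha to Bckdhb was 2.91 ± 0.147 (SD, n = 3) in the WT mice and 2.75 ± 0.243 in LSD1-mKO (SD, n = 3; exact permutation test, p = 0.50).

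Hibadh, 3-hydroxyisobutyrate dehydrogenase of the valine branch (chromosome 6, 52546228 to 52640389), acts on a metabolite that muscle can release. It measured 181, 155 and 153 CPM in WT and 160, 191 and 182 CPM in LSD1-mKO. The highest value was that of LSD1-mKO replicate 2, and WT replicate 1 was above LSD1-mKO replicate 1. The log2 fold change was 0.13 (SE 0.10, adjusted p = 0.849, edgeR).

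Divided by transcript length, the 10 genes covered a wide range of levels. Hibadh was the highest at 206 ± 16.5 TPM (SD, n = 6), followed by Bckdha at 185 ± 25.3 TPM, and Ppm1k was the lowest at 15.5 ± 2.56 TPM. In between came Ivd (112 TPM), Bcat2 (98.4 TPM), Bckdk (93.1 TPM), Bckdhb (65.2 TPM), Mccc1 (49.8 TPM), Dbt (41.0 TPM) and Mccc2 (36.0 TPM). Bcat2 and Bckdk could not be ordered, since Bcat2 was the higher in 3 of 6 mice. Ivd was above Bcat2, and Dbt above Mccc2, in 5 of 6 mice, and every other neighbour kept its order in 6 of 6 mice. The order also depended on the length used. With the coding length in place of the longest transcript, an alternative chosen after seeing the data, Ivd moved above Bckdha, Bckdk above Bcat2, Dbt above Bckdhb, and Ppm1k above both Mccc genes. Hibadh was the highest with both lengths.

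**Figure D2:**
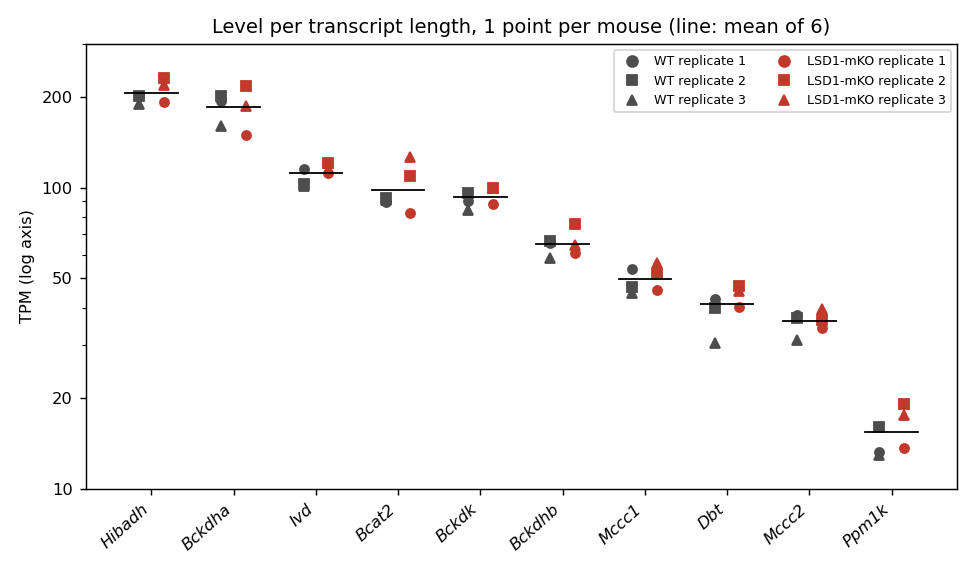
Level per transcript length in TPM (log axis) of the 10 BCAA genes, ordered by the mean of the 6 mice, which is drawn as a line, with 1 point per mouse. The means run from 206 TPM for Hibadh to 15.5 TPM for Ppm1k, and Bcat2 and Bckdk share their range.

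The 10 genes followed a shared pattern from mouse to mouse within each genotype, which was not particular to them. The TCA cycle and fatty acid oxidation lists were likewise lowest in WT replicate 3 and LSD1-mKO replicate 1 within their groups. The share of all genes tested that follow this pattern was not counted. Among the LSD1-mKO mice, replicate 1 was the lowest for 10 of 10 genes, on the CPM and the TPM scale alike. Among the WT mice, replicate 1 was the highest for 9 of 10 genes in CPM, but for 5 of 10 in TPM, where replicate 2 was the highest for the other 5. Replicate 3 was the lowest WT mouse for 7 genes in CPM and for 9 in TPM. The summed level was 1065, 906 and 856 CPM in WT and 913, 1097 and 1069 CPM in LSD1-mKO. In TPM it was 905, 899 and 802 in WT and 820, 1010 and 977 in LSD1-mKO, a log2 difference of 0.10 (exact permutation test, p = 0.400). This difference was 0.046 without LSD1-mKO replicate 2, 0.048 without WT replicate 3 and 0.196 without LSD1-mKO replicate 1 (exact permutation test, p = 0.1, the smallest that 3 mice against 2 can give).

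Genes of the TCA cycle and of fatty acid oxidation, which take up or run beside the products of the pathway, were measured beside them in each mouse. The TCA cycle list of 17 genes summed to 14320, 11922 and 11698 CPM in WT and to 12417, 13733 and 14271 CPM in LSD1-mKO. The summed TPM of the BCAA genes per 1000 TPM of the TCA cycle was between 64.7 and 70.6 in the 6 mice, at 66.3 ± 1.49 in WT and 67.3 ± 3.01 in LSD1-mKO (SD, n = 3 each; exact permutation test, p = 0.70, an alternative chosen after seeing the data). Per 1000 TPM of fatty acid oxidation it was between 106 and 113. All 17 TCA cycle genes and 14 of 16 fatty acid oxidation genes had a fitted log2 fold change above 0, with medians of 0.074 and 0.12, and 0 of either list had an unadjusted p under 0.05. In the pyruvate dehydrogenase list, the complex most akin to BCKDH with its own kinases and phosphatases, 9 of 10 were above 0, against 45.2% of all genes tested, and 1 had an unadjusted p under 0.05, which is near the 6.40% of all genes tested. That gene, named after its values were seen, was the phosphatase Pdp2, with a log2 fold change of 0.46 (adjusted p = 0.726, edgeR).

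Fibroblast, immune, endothelial and adipocyte markers were higher in the mice where the BCAA genes were low. The 3 highest sums of the fibroblast markers were those of WT replicates 3 and 2 and LSD1-mKO replicate 1, which were also the 3 mice with the lowest sums of the BCAA genes. The 5 immune markers summed to 24.0, 103 and 82.1 CPM in WT and to 67.3, 29.1 and 40.0 CPM in LSD1-mKO, with the higher sums in the same 3 mice. The 5 endothelial markers summed to 451, 651 and 564 CPM in WT and to 574, 461 and 469 CPM in LSD1-mKO. Their higher sums were again in the same 3 mice. The muscle fiber, red blood cell and Schwann markers did not divide the mice in this way. The muscle fiber markers summed to 121461, 91488 and 108182 CPM in WT and to 108230, 99128 and 102155 CPM in LSD1-mKO. Of the 6 fibroblast markers 0, and of the 5 immune markers 0, had an unadjusted p under 0.05 between genotypes, and none was at 0 counts in a library. In the other marker lists, 2 genes, named after their values were seen, had an unadjusted p under 0.05. The endothelial marker Vwf measured 67.4, 75.4 and 84.5 CPM in WT and 66.5, 50.7 and 48.6 CPM in LSD1-mKO, without overlap (log2 fold change -0.45, adjusted p = 0.619, edgeR). The hemoglobin gene Hba-a1 measured 13.5, 5.76 and 0.00 CPM in WT and 2.59, 78.0 and 202 CPM in LSD1-mKO, with overlap (log2 fold change 3.95, adjusted p = 0.684, edgeR), and its near-identical copy Hba-a2 makes the split of reads between them uncertain. Adipocytes, which also break down BCAAs, were represented by 7 markers. These summed to 537, 579 and 621 CPM in WT and to 610, 554 and 519 CPM in LSD1-mKO. The 3 highest sums were again those of WT replicates 3 and 2 and LSD1-mKO replicate 1. The part of adipocytes in the levels of the BCAA genes was not tested.

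**Figure D3:**
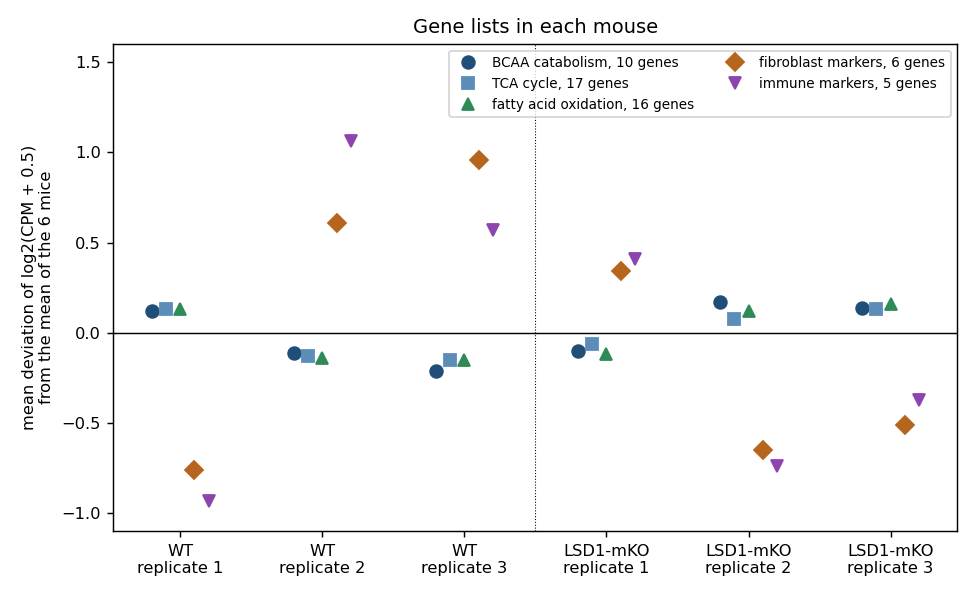
Mean deviation of log2(CPM + 0.5) from the mean of the 6 mice (vertical axis) for the BCAA genes, 2 mitochondrial lists and 2 marker lists, in each mouse. The BCAA genes lie at 0.12, -0.11 and -0.21 in WT and at -0.10, 0.17 and 0.14 in LSD1-mKO, and the fibroblast markers lie on the other side of 0 in each of the 6 mice.

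The dependence on single mice was therefore examined for each of the 10 genes. Without WT replicate 1 the median log2 fold change of the 10 genes was 0.22, and 2 of them, Dbt and Ivd, had an unadjusted p under 0.05, where 14.4% of all genes tested in that fit did. Without LSD1-mKO replicate 1 the median was 0.17, and 2 of the 10 genes, Bcat2 (log2 fold change 0.38) and Ppm1k (0.39), had an unadjusted p under 0.05, where 7.35% of all genes did. None of the 10 genes had an adjusted p under 0.05 in these fits or in the other 4, the lowest being 0.216 for Ivd without WT replicate 1. Without WT replicate 3 the median was 0.066, and Bckdha and Mccc2 were then below 0. Without LSD1-mKO replicate 2 it was 0.082, and Bckdha and Bckdhb were below 0.

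**Figure D4:**
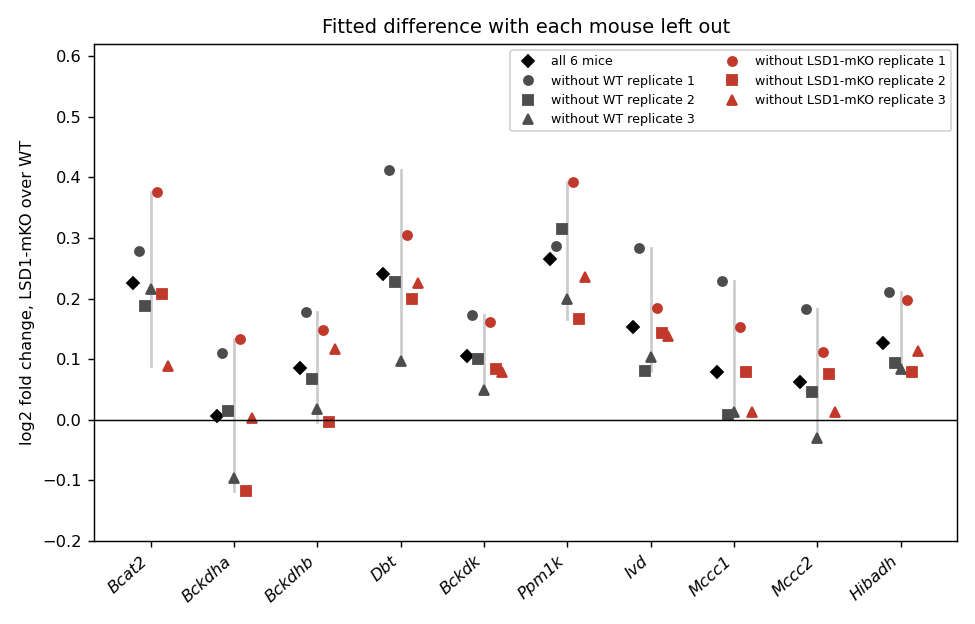
Log2 fold change of LSD1-mKO over WT (vertical axis) for the 10 BCAA genes with all 6 mice (diamonds) and with each mouse left out in turn (gray and red symbols for a WT or an LSD1-mKO mouse left out). The values run from -0.12 for Bckdha to 0.41 for Dbt.

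The question was then extended to the rest of the pathway, as 20 further enzymes and cofactors, 6 transporters and 6 transcriptional regulators. Of the 20 enzymes, 17 had a fitted log2 fold change above 0, against 45.2% of all genes tested, and the median was 0.10. An unadjusted p under 0.05 was found for 3 of the 20, Abat, Acadsb and Mmab, against 6.40% of all genes tested, and 0 passed the adjusted threshold. The CPM ranges of the genotypes did not overlap for 2 of the 20, Abat and Acadsb, against 12.7% of all genes tested. A count of 2 in 20 is near this share. Abat is the transaminase of GABA that also acts on beta-aminoisobutyrate, a product of valine. It measured 24.5, 20.8 and 27.6 CPM in WT and 42.9, 43.3 and 48.6 CPM in LSD1-mKO. The lowest LSD1-mKO mouse exceeded the highest WT mouse by a wide margin, and at 185% of the WT mean the LSD1-mKO mice had a fitted log2 fold change of 0.89 (95% interval 0.61 to 1.16, unadjusted p = 6.47e-05, adjusted p = 0.159, edgeR). The adjusted p was 3.47e-05 with DESeq2 and 0.0111 in edgeR when no gene was filtered out for low counts, and over all alternatives it reached 0.705. Over the fits that left out 1 mouse each, Abat lay between 0.78 and 0.99 on the log2 scale.

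Acadsb, the acyl-CoA dehydrogenase of the isoleucine branch, measured 169, 151 and 165 CPM in WT and 195, 184 and 204 CPM in LSD1-mKO. The groups did not overlap, and the log2 fold change was 0.26 (SE 0.086, adjusted p = 0.660, edgeR). The study placed Acadsb in a cluster picked on these same libraries for being higher in LSD1-mKO, so its direction is not independent evidence. Mmab, which prepares the vitamin B12 cofactor of methylmalonyl-CoA mutase, was at 23.9 ± 3.60 CPM (SD, n = 3) among WT mice and 31.2 ± 5.51 (SD, n = 3) in LSD1-mKO, with ranges that overlapped (adjusted p = 0.756). The most abundant enzymes of the list, Oxct1, Acat1 and Dld, are shared with ketone body use or with other dehydrogenases. Oxct1 had a log2 fold change of 0.29 and Acat1 of 0.13, with adjusted p of 0.766 and 0.865 (edgeR). Oxct1 was at 0.165 without LSD1-mKO replicate 3, and Acat1 was at 0.064 without WT replicate 2 and 0.252 without WT replicate 1.

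Of the 6 transporters, 1 had an unadjusted p under 0.05, against 6.40% of all genes tested, and the same gene was the 1 with ranges that did not overlap, against 12.7% of all genes tested. A count of 1 in 6 is near these shares. The fitted log2 fold change was above 0 for 4 of the 6, against 45.2% of all genes tested, in a range from -0.16 to 0.23. Slc25a44, which carries BCAAs into mitochondria, measured 31.6, 32.6 and 32.1 CPM in WT and 40.0, 36.0 and 35.9 CPM in LSD1-mKO. The lowest LSD1-mKO value lay at 35.9 CPM and the highest WT value at 32.6 CPM, and the difference was small, with log2 fold change 0.22 (SE 0.087, adjusted p = 0.736, edgeR). Slc3a2 and Slc43a2, also of this list, had log2 fold changes of 0.0018 and 0.23, with overlapping ranges. Slc3a2 was below 0 with upper quartile scaling (-0.004) and with library size alone (-0.022).

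Among the 6 regulators linked to BCAA genes, 2, Esrrg and Mlxipl, had ranges that did not overlap, against 12.7% of all genes tested. The same 2 had an unadjusted p under 0.05 in edgeR, against 6.40% of all genes tested, and 0 passed the adjusted threshold. Fitted log2 fold changes were above 0 for 4 of the 6, against 45.2% of all genes tested, and ran from -0.39 to 0.96. Esrrg encodes ERRγ, and it measured 147, 125 and 116 CPM in WT and 267, 208 and 282 CPM in LSD1-mKO (log2 fold change 0.96, adjusted p = 0.162 with edgeR and 1.79e-06 with DESeq2, and up to 0.705 over all alternatives). The study placed Esrrg, too, in the cluster picked on these libraries. Beside the sequencing, the study reported higher Esrrg by quantitative RT-PCR and more ERRγ protein in LSD1-mKO Sol after VWR. Mlxipl encodes ChREBP, which is known in liver to raise Bckdk and lower Ppm1k. It measured 77.8, 76.2 and 77.3 CPM in WT and 108, 87.6 and 115 CPM in LSD1-mKO (log2 fold change 0.42, standard error 0.11, adjusted p = 0.534, edgeR). Esrra and Ppara, which were also abundant, had log2 fold changes of -0.031 and 0.0063, each smaller than its standard error. The fitted ratio of LSD1-mKO to WT was 1.95 for Esrrg, while for Ppm1k, the BCAA gene with the largest, it was 1.20 with an interval from 0.971 to 1.49.

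**Figure D5:**
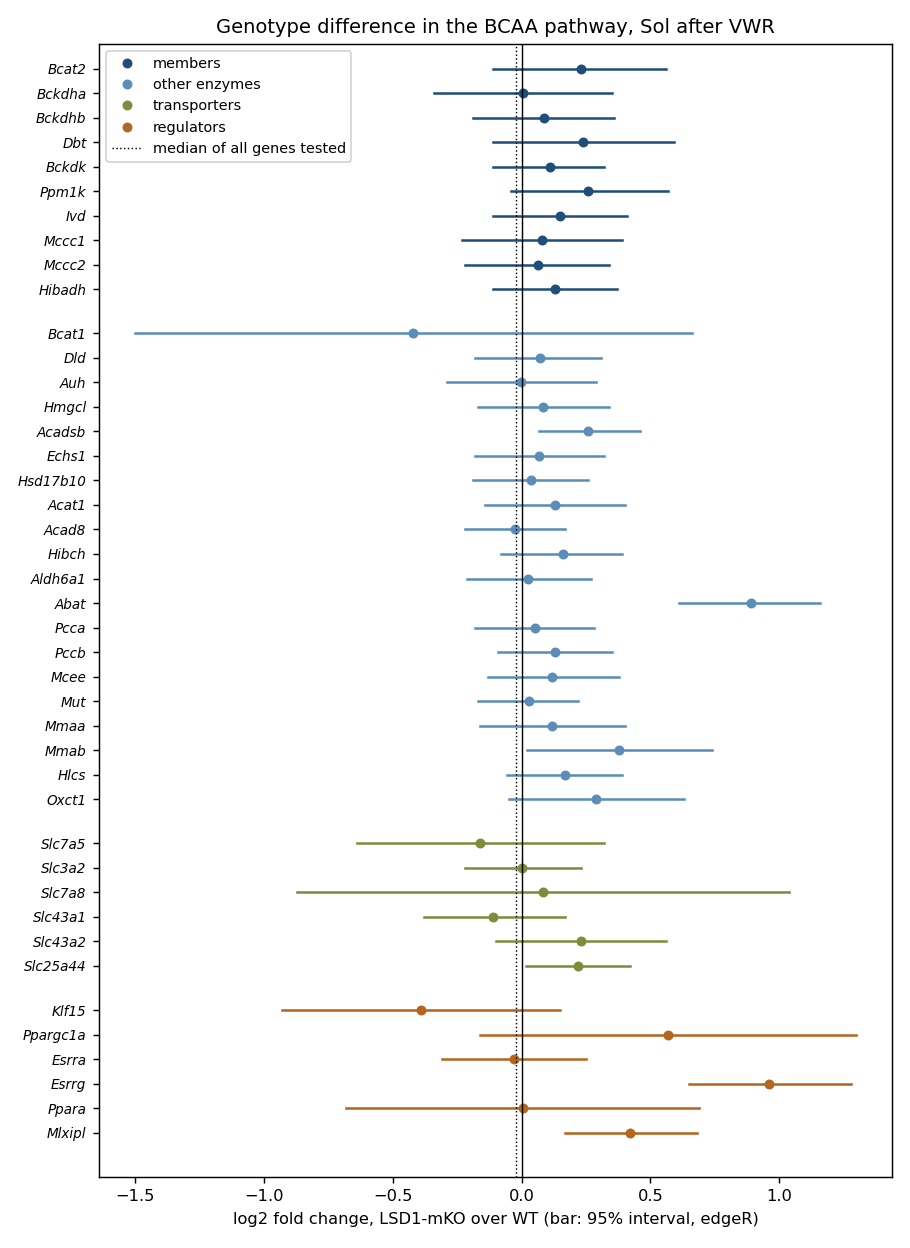
Log2 fold change of LSD1-mKO over WT (horizontal axis) with its 95% interval from edgeR for the 10 BCAA genes, 20 other enzymes and cofactors, 6 transporters and 6 regulators; the dotted line is the median of all genes tested. The intervals of the 10 genes all include 0, and those of Abat and Esrrg lie farthest above it.

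Because Esrrg encodes a receptor that binds DNA at known letters, the promoters of the BCAA genes were read for them. RefSeq windows on GRCm38.p6, from 250 bases before to 50 bases after a start, were matched for 9 of the 10 genes, Dbt being the exception, and gave 11 windows. The extended half-site AAGGTCA of the estrogen-related receptors was searched on both strands and was found in 0 of the 11 windows, against 4.72% of all 32851 windows. With 11 windows, a count of 0 is near this share, and sites outside the windows were not searched. The study searched wider regions for its cluster of genes higher in LSD1-mKO, and reported the ERRγ motif enriched there. The shorter nuclear receptor half-site AGGTCA, which the longer motif contains, was found in 3 windows, those of Hibadh, Ppm1k and Bckdhb, against 16.3% of all windows. It began 124 bases before the start of Ppm1k, 119 bases before that of Bckdhb and 19 bases after that of Hibadh. The windows of the phosphatase and of the E1 beta subunit are given 5′ to 3′ in the direction of the gene, to show the surroundings of the matches, with the half-site or its reverse complement TGACCT in capitals. A match of letters is a description and not a binding site, and binding was not measured here.
Ppm1k (chr6:57535438-57535737, minus strand): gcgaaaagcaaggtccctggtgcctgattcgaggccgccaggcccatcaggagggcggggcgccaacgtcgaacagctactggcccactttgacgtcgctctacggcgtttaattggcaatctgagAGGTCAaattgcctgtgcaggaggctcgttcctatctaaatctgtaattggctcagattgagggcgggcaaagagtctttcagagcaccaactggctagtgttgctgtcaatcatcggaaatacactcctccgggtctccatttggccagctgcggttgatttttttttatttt
Bckdhb (chr9:83924887-83925186, plus strand): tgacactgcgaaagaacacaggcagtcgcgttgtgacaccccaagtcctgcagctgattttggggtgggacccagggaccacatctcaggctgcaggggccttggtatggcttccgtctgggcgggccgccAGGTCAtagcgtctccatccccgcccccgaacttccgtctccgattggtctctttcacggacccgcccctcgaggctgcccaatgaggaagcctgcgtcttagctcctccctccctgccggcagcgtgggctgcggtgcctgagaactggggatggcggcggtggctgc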

How the data were processed

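Poly(A) RNA of whole Sol from 3 WT and 3 LSD1-mKO mice was sequenced as 75-base single-end reads. The authors aligned the reads to mm10 with STAR and deposited 1 table of estimated counts per gene and library (8.33% to 9.94% of the values are not whole). The counting tool, its annotation and its strand setting are not given in the sources used here. A deposited table of the authors' own DESeq2 comparison, with fold changes and p-values, was not used. The estimated counts were rounded, and genes were filtered with filterByExpr, scaled by TMM and tested with the quasi-likelihood test of edgeR 4.0.16 (R 4.3.3), with Benjamini-Hochberg adjustment over 12828 genes. DESeq2 1.42.0 and limma voom 3.58.1 were alternatives, and the scripts were tested on simulated data. TPM used the longest protein-coding transcript of GENCODE on GRCm38, with 392 symbols without a length. Of the symbols, 27 stood as dates and 2 were repeated. Ratios and sums were compared with 2-sided exact permutation tests. Totals of 8940206 to 13798059 limit the precision of low genes. The p-values of the fits set the genotype difference against the spread between these mice, estimated with the help of all genes tested. The permutation p-values give the share of all splits of the mice with a difference at least as large.

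The genes and lists were chosen with earlier results of these data known. The text names all 10 BCAA genes, Kdm1a, and from the other enzymes, transporters and regulators each gene with an unadjusted p under 0.05 or groups without overlap, plus the 3 of highest mean CPM in each list. Endothelial, red blood cell and Schwann markers were also summed, and their median log2 differences were -0.15, -0.030 and -0.023, and muscle and adipocyte markers had medians of 0.039 and -0.051. Those of the fibroblast and immune markers were -0.73 and -0.62. Samples with the same replicate number did not deviate together (correlations of -0.373, -0.0888 and -0.145).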

Additional observations from a re-analysis of the deposited data

How the results depend on the processing

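Of 140 refits of the BCAA genes, 134 kept direction and stayed on the same side of the threshold, and 6 changed sign without crossing it. Bckdha was at -0.002 with limma voom, -0.011 with library size alone, -0.096 without WT replicate 3 and -0.118 without LSD1-mKO replicate 2. Bckdhb was at -0.004 without LSD1-mKO replicate 2 and Mccc2 at -0.030 without WT replicate 3. The number of BCAA genes called was 0 in every alternative run. Over all genes, 1 was called higher and 1 lower with edgeR, against 33 and 9 with DESeq2, 8 and 3 with no filtering of low genes, and 2 higher with limma voom. With 1 mouse left out, 1 to 2 were higher and 0 to 1 lower. In the fit with a replicate block, 0 genes were lower, 0 BCAA genes were called and Ppara was at -0.003. The labels do not say whether the numbers pair the mice.

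Slc3a2 changed sign with upper quartile (-0.004), library size alone (-0.022) and without WT replicate 1 (-0.022), WT replicate 2 (-0.052) or LSD1-mKO replicate 3 (-0.029). Esrra was at 0.083 and 0.030 without replicate 1 of WT or LSD1-mKO. Ppara was at -0.001 with limma voom, and at -0.205, -0.029 and -0.305 without WT replicate 2, WT replicate 3 or LSD1-mKO replicate 3. The log2 difference in the Mccc1 to Mccc2 ratio was -0.038 without WT replicate 2 and 0.017 with all mice. With 1 mouse left out, the other end of the range was 0.133 for Bckdha, 0.177 for Bckdhb, 0.183 for Mccc2, 0.087 for Slc3a2, -0.117 for Esrra, 0.295 for Ppara and 0.049 for the Mccc1 to Mccc2 ratio. The cause of these changes was not tested. With 3 mice per group, the intervals of the BCAA genes leave differences of the size seen for Slc25a44 undetected.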
